A study of Mus musculus with 9 samples.

Results

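The 8 genes Mstn, Inhba, Fst, Fstl3, Fstl1, Acvr2a, Acvr2b and Ostn, of the myostatin and activin system and of musclin, were followed through differentiation of mouse primary myoblasts. They were chosen by name, with earlier results of these data known, and each was read from the probe set whose platform annotation names that gene alone. All 8 had 1 such probe set among 19938 genes that had one, so no choice between probe sets was needed. All 8 also passed the filter on low values that left 16582 genes, 7 of them on all 9 arrays. Ostn passed it through the 3 day 5 arrays only, so it could pass only as a gene that differs between times.

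The cells were wild-type myoblasts from skeletal muscle of Balb/c mice, grown in primary culture. The 3 groups, with 3 arrays each, were cycling myoblasts (0 days), myotubes after 2 days and myotubes after 5 days in differentiating medium. The sample titles alone name that medium, whereas the growth protocol gives 20% serum and 4 ng/ml basic FGF for every sample. Whether the 3 arrays of a time come from separate cultures or animals is not given in the labels, so the spread between them may be technical.

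Myostatin, the product of Mstn, is a ligand of the TGF-beta superfamily that muscle secretes and that limits its growth. Like activin, it binds the type II receptors Acvr2a and Acvr2b, which engage type I receptors and pass the signal on through Smad2 and Smad3. Follistatin, from Fst, and its relative from Fstl3 bind myostatin and activin outside the cell and keep them from their receptors. Musclin, from Ostn, is a peptide secreted by muscle that resembles the natriuretic peptides and binds their clearance receptor Npr3.

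The 9 arrays carried the muscle lineage: all 10 markers measured, Myod1, Myog, Des and Ckm among them, lay above the array median on every array. Of 5 endothelial markers 0 did so at any time, while 1 of 5 leukocyte markers did in cycling myoblasts (Cd68), 1 at day 2 (Itgam) and 0 at day 5. Of 4 adipocyte markers only Plin1 did so, at all 3 times, and of 2 Schwann cell markers 0 did in cycling myoblasts, 1 did at day 2 and 2 did at day 5. Of 8 fibroblast markers, 3 did so in cycling myoblasts and at day 2 (Thy1, Col1a1 and Col3a1) and 4 at day 5 (Pdgfra as well), while Lum and Dpt were at or below the 30th percentile of every array. The summed linear level of these 8 ran from 606 to 620 for cycling myoblasts, from 178 to 179 for day 2 and from 138 to 139 for day 5, and most of its difference lay in Col3a1. The other 7 summed to 130 on each array of cycling myoblasts, 112 to 113 at day 2 and 111 to 112 at day 5. Both sums used the deposited values alone, so no fall of the other 7 is read from them. In those values 4 of the 8 had a lower mean at day 5 than in cycling myoblasts. Once all 9 arrays were brought to one distribution, only 2 did, Col3a1 and Cd34. Thy1 then went from 4.73 to 5.09 and Pdgfra from 4.14 to 4.71. The arrays of each time had been normalized together and the times apart. A level is therefore given as a log2 RMA value as deposited and, for each change, the log2 fold change (log2FC) is given as deposited and then on a common scale, on which all 9 arrays were brought to one distribution. The median log2FC of all genes tested at day 2 against cycling myoblasts was -0.01 in the deposited values and 0.09 after bringing the arrays to one distribution. It was -0.37 and 0.17 at day 5 against cycling myoblasts, and -0.40 and 0.05 at day 5 against day 2. A change counts as 2-fold here only if it reaches 2-fold on both scales with a limma adjusted p under 0.05 on both. Identical values on all 3 arrays of a time are frequent in the table, which makes the spread too small, and 93.3% of all genes passed the p threshold at day 2 as deposited, so size and not p decides. The 8 genes were chosen with their course known, and their values are a description with no test.

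Mstn, Fst and Fstl3 were higher and Fstl1 was lower at day 2 than in cycling myoblasts, Ostn came up between day 2 and day 5, and Inhba and Acvr2b stayed within 2-fold on both scales. At day 2, 3 of the 8 were at least 2-fold higher and 1 lower, against 6.04% of all genes higher and 8.41% lower. At day 5 against cycling myoblasts, 3 were higher and 1 lower, against 4.44% and 12.3% of all genes. At day 5 against day 2, 1 was higher and 1 lower, against 0.766% and 3.67% of all genes. These shares are background for the counts, from which nothing is read, since the genes were not drawn at random. RNA came from whole cultures, in which a change in the share of cells that express a gene and a change in RNA per cell cannot be told apart.

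**Figure D1:**
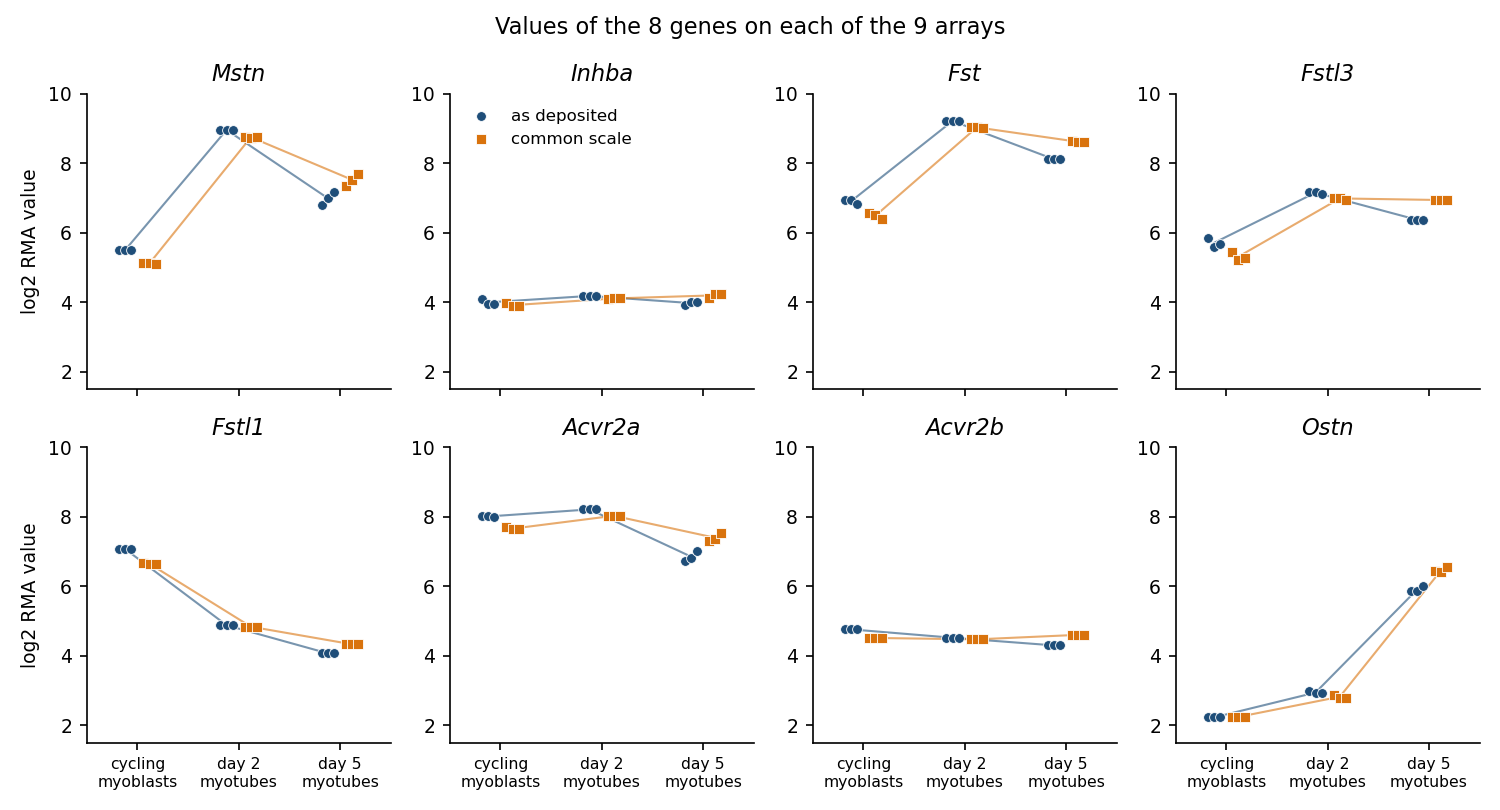
Log2 RMA values of the 8 genes on each array, as deposited (circles) and on the common scale (squares), for cycling myoblasts, day 2 and day 5 myotubes. Each point is 1 array and the lines join the means of 3 arrays. Mstn peaks at day 2, Fstl1 steps down at both times and Ostn lies near 2 to 3 until it reaches 5.85 to 6.0 as deposited at day 5.

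Myostatin was the member with the largest change at day 2. Mstn had 5.50 on all 3 arrays of cycling myoblasts, then 8.96, 8.94 and 8.96 on the day 2 arrays, and 6.79, 6.99 and 7.18 on the day 5 arrays. The 3 times did not overlap, and day 5 lay between the other two. With identical values within a time so frequent, even small changes show no overlap, so nothing is read from it for any of the 8 genes. At day 2 the log2FC was 3.45 ± 0.0064 (SE, n = 3 each) as deposited and 3.63 on the common scale, that is 11-fold and 12.4-fold, and only 57 of 16582 genes as deposited and 50 on the common scale had a larger one. At day 5 the log2FC against cycling myoblasts was 1.49 ± 0.11, and 2.40 on the common scale. Against day 2 it was -1.96 ± 0.11 and -1.23, so the day 5 level was 3.89-fold and 2.34-fold lower. On the arrays themselves Mstn stood at the 63.1st percentile of probe sets in cycling myoblasts, the 93.7th at day 2 and the 86.4th at day 5 (means of 3 arrays). The day 5 arrays had the widest spread of any of the 8 genes at any time, with an SD of 0.19.

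Inhba encodes the subunit that forms activin A. It had 4.08, 3.95 and 3.95 in cycling myoblasts, 4.18 on each day 2 array, and 3.92, 4.00 and 4.00 at day 5. It lay under the array median on all arrays of cycling myoblasts and of day 2 and on 1 array of day 5, so it is not shown to lie above background. Its log2FC at day 2 was 0.19 on both scales. At day 5 against cycling myoblasts it was -0.02 as deposited, where the arrays overlapped, and 0.28 on the common scale, so its direction turned with the scale.

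The 250 bases upstream of the annotated start are shown for Mstn and Fstl3, which were both higher at day 2, and for Fstl1, which was lower. They are RefSeq sequences on build GRCm38.p6, all on the plus strand, at chr1:53061390-53061639 for Mstn, chr10:79777024-79777273 for Fstl3 and chr16:37776805-37777054 for Fstl1. Capitals mark matches to CANNTG, the E-box letters that myogenic bHLH factors such as Myod1 bind.
Mstn: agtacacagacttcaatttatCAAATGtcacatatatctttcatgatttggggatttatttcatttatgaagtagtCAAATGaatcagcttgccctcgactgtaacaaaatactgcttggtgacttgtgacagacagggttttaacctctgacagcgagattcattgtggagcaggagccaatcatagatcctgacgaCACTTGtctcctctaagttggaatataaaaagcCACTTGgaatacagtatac
Fstl3: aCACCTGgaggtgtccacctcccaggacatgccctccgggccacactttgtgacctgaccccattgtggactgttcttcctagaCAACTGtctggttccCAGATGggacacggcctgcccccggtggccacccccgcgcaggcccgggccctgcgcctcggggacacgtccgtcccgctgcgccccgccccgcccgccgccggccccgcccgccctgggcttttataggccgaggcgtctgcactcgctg
Fstl1: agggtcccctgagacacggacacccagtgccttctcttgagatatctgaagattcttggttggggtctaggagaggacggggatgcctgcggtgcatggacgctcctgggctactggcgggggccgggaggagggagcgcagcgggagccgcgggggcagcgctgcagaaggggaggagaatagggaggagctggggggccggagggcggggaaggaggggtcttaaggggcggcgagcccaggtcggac
Mstn held 4 matches, CAAATG at -229 and -174 and CACTTG at -52 and -19 from the start, and Fstl3 held 3, CACCTG at -249, CAACTG at -166 and CAGATG at -151. The same window held 0 matches in Fstl1, Inhba, Acvr2a and Acvr2b. CANNTG reads the same on both strands, and 66.2% of 32851 promoter windows of this length hold it, so a match is common and is a description of letters only. Mstn also held TATAAA at -29, and Inhba held it at -91. This motif was searched on the gene's strand alone and found in 7.59% of all windows. The Mstn window had 38.4% G and C, against 71.2% in Fstl3 and 68.0% in Fstl1. CAGCTG, a form of CANNTG that 13% of all windows hold, had 0 matches in each window. Windows were matched for 6 of the 8 genes, and none was found for Fst and Ostn. Fst was higher at day 2 and Ostn at day 5, so the windows do not cover all members that rose.

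Among antagonists of the ligands, the members Fst and Fstl3 were higher in myotubes too. Fst had 6.94, 6.94 and 6.83 in cycling myoblasts, 9.21 on every day 2 array and 8.11 on every day 5 array. As with Mstn, the groups did not overlap, and the order was cycling myoblasts, day 5, day 2. The log2FC at day 2 was 2.31 ± 0.040 and 2.54, or 4.96-fold and 5.83-fold. At day 5 it was 1.20 ± 0.040 and 2.12 against cycling myoblasts. Against day 2 it was -1.11 and -0.42, which is 2-fold lower on the first scale alone.

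Fstl3 had 5.84, 5.60 and 5.68 in cycling myoblasts, 7.17, 7.17 and 7.11 at day 2, and 6.37 on every day 5 array. The day 5 arrays again lay between the other times as deposited. The log2FC at day 2 was 1.44 ± 0.074 and 1.67. At day 5 against cycling myoblasts it was 0.66 ± 0.071 and 1.62, so it passed 2-fold on the common scale alone. Against day 2 it was -0.78 and -0.05, and on the common scale the level at day 5 was thus close to that at day 2.

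The differences between the changes of Mstn, Fst and Fstl3 on the same arrays were close on both scales. At day 2 the log2FC of Mstn exceeded that of Fst by 1.14 ± 0.040 as deposited and by 1.09 on the common scale, and that of Fstl3 by 2.01 ± 0.075 and 1.96. At day 5 the excess over Fst was 0.29 ± 0.12 and 0.28. Between day 2 and day 5, Mstn came down by more than Fst, with a difference of -0.86 ± 0.11 and -0.81, and by more than Fstl3, with -1.18 ± 0.11 and -1.18. These are differences between changes, not between levels of different genes. Other pairs moved with the scale: the later change of Fstl1 differed from that of Fstl3 by -0.02 as deposited and by -0.46 on the common scale.

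Fstl1, a secreted glycoprotein that shares a follistatin-type domain, went the other way. It had 7.07 on every array of cycling myoblasts, 4.88 on every day 2 array and 4.07 on every day 5 array. Identical values within a time leave no measured spread as deposited. The log2FC was -2.19 and -1.81 at day 2, and -2.99 and -2.32 at day 5, that is 7.97-fold and 4.99-fold lower at day 5. The later step, day 5 against day 2, was -0.81 and -0.51, below 2-fold on both scales. At day 5 Fstl1 lay 0.08 to 0.09 above the array median, so its lower level is near the middle of all probe sets. That level is not shown to lie above background, so the exact size of the fall is not known. Of the 8 fibroblast markers, Col3a1, a fibrillar collagen gene, had a mean of 8.92 in cycling myoblasts, with 6.06 at day 2 and 4.77 at day 5. The others did not share one direction: 4 of the 8 had a lower mean than in cycling myoblasts on both scales at day 2 (Pdgfra, Thy1, Col3a1 and Cd34) and 2 at day 5 (Col3a1 and Cd34). Tcf21 had a higher mean on both scales at both times, and on the common scale Col1a1 had 4.99, 5.22 and 5.43 in time order. Cd34 and Tcf21 were not above the median of every array at any time, nor was Pdgfra before day 5. Their directions are therefore between levels not shown to lie above background. The part of fibroblasts in the Fstl1 result was not tested.

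**Figure D2:**
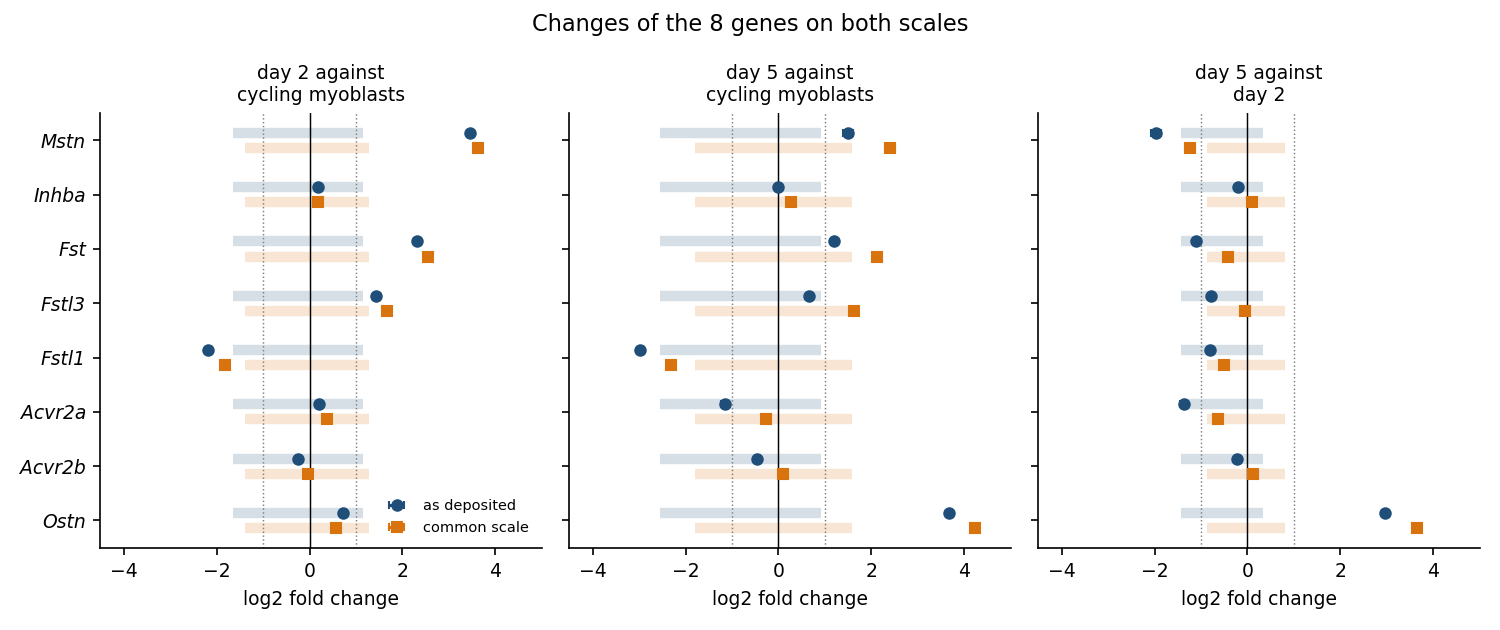
Log2 fold changes of the 8 genes in the 3 comparisons, as deposited (circles) and on the common scale (squares), with SE bars from 3 arrays a group. Shaded bars span the 5th to the 95th percentile of all 16582 genes on each scale and dotted lines mark 2-fold. Mstn, Fst, Fstl3 and Fstl1 lie outside the shaded range at day 2, and Ostn and Mstn do at day 5 against day 2.

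The type II receptors did not share the course of the ligand. Acvr2a had 8.01, 8.01 and 8.0 in cycling myoblasts, 8.21 on every day 2 array, and 6.74, 6.81 and 7.01 at day 5. The day 5 arrays were the lowest. The log2FC at day 2 was 0.21 ± 0.0020 and 0.37. At day 5 it was -1.15 ± 0.082 and -0.26 against cycling myoblasts, and -1.36 ± 0.082 and -0.64 against day 2, so a 2-fold decrease was seen as deposited and not on the common scale. Acvr2a still kept a low rank among changes from day 2 to day 5 on the common scale, where 1567 of 16582 genes had a lower log2FC.

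Acvr2b had 4.76 on every array of cycling myoblasts, 4.52 on every day 2 array and 4.30 on every day 5 array. It lay 0.26 to 0.43 above the array median throughout. The log2FC was -0.24 and -0.04 at day 2, and -0.46 and 0.09 at day 5 against cycling myoblasts, so at day 5 the direction turned with the scale. The difference between the changes of both receptors from day 2 to day 5, Acvr2a minus Acvr2b, came to -1.13 ± 0.082 and -0.77 ± 0.070.

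Musclin was the late member. Ostn had 2.23 on every array of cycling myoblasts, 2.99, 2.92 and 2.92 at day 2, and 5.85, 5.85 and 6.0 at day 5. The day 5 arrays stood far above both earlier times, and both earlier times lay at or below the 30th percentile on every array. Ostn stood at the 13.4th percentile in cycling myoblasts, the 23.1st at day 2 and the 77.2nd at day 5. The log2FC at day 5 was 3.68 ± 0.050 and 4.22 against cycling myoblasts and 2.96 ± 0.056 and 3.64 against day 2, with a lower level that is not shown to lie above background, so the exact size is not known. At day 2 the log2FC was 0.72 and 0.58 between levels that were both this low. Between day 2 and day 5, Ostn and Mstn thus went opposite ways on both scales.

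**Figure D3:**
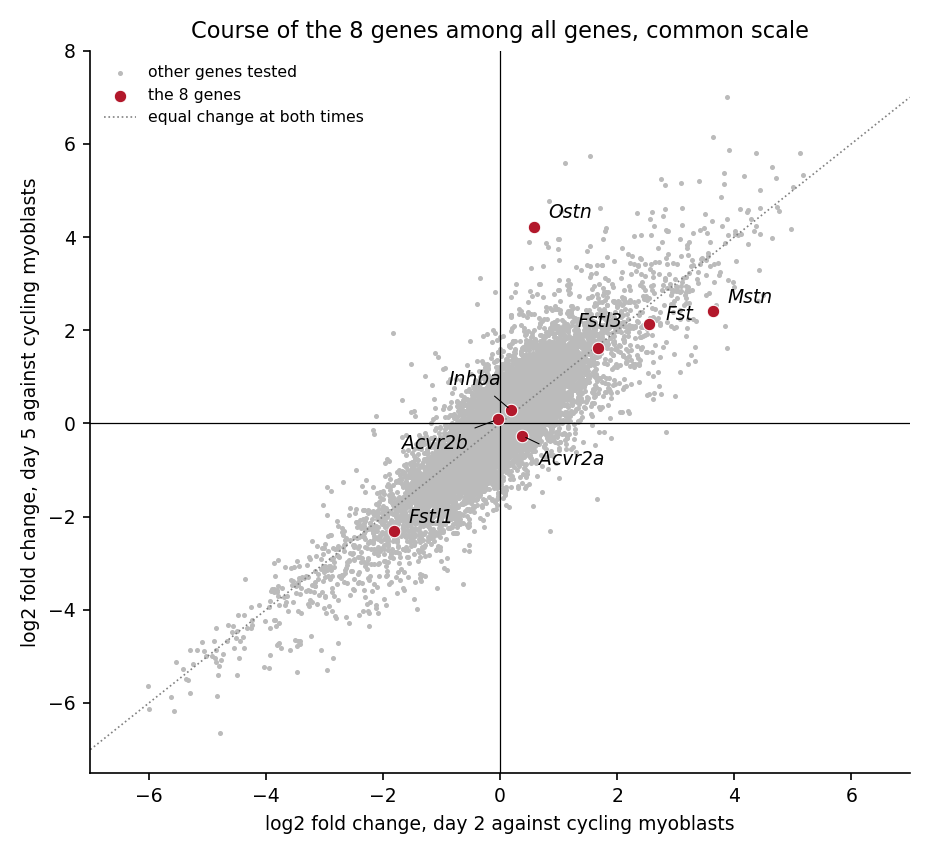
Log2 fold change against cycling myoblasts at day 2 (x axis) and day 5 (y axis) on the common scale, for the 8 genes (large points) and the other genes tested (small points). The dotted line marks equal change at both times. Ostn lies far above it at 0.58 and 4.22, Mstn lies below it at 3.63 and 2.40, and Fstl3 lies close to it at 1.67 and 1.62.

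Genes with the most similar course were taken by the smallest distance between both log2FC against cycling myoblasts on the common scale, among 16574 other genes and over the means of 3 times. Nearest to Mstn were Slc44a4 (distance 0.061), Dhrs7c, a dehydrogenase of the sarcoplasmic reticulum (0.145), and the myosin light chain Myl6b (0.349), and 10 genes lay within 0.5. Nearest to Fst were Plce1, a phospholipase C (0.063), Klhl40, a kelch-like protein of muscle (0.075), and Ddc, dopa decarboxylase (0.084), with 64 genes within 0.5. Nearest to Ostn were Igfn1, an immunoglobulin and fibronectin domain protein of muscle (0.336), Mss51 (0.415) and Mettl11b (0.482), with 4 genes within 0.5. Fstl1 was nearest to Cap1 (0.029), Clic1 (0.043) and Mtbp (0.051), and Fstl3 to Tbx18 (0.026), Camk2a (0.031) and Bend7 (0.051), with 226 and 265 genes within 0.5. Acvr2a, nearest to Haus7 (0.017), Cherp (0.022) and Plekhh2 (0.023), had 2620 genes within 0.5. Inhba (Prr15l, Scaf1 and Pou2f3, at most 0.005) and Acvr2b (Bean1, Pbld2 and Cgnl1, at most 0.010) had 6280 and 5759, since most genes change little.

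The rest of the pathway was described with 6 lists of 65 genes, of which 57 were tested, 3 lay below the filter and 5 had no probe set of their own. At day 2, 3 rose and 5 fell at least 2-fold (14%, against 14.4% of all genes). At day 5 against cycling myoblasts, 1 rose and 8 fell (15.8%, against 16.7%), and at day 5 against day 2, 0 rose and 3 fell (5.26%, against 4.44%). On both scales together these shares lay near those of all genes. The counts and the split between rises and falls depended on the scale. On the common scale alone 5 rose and 5 fell at day 2 (17.5%, against 16.2% of all genes), 4 rose and 8 fell at day 5 against cycling myoblasts (21.1%, against 24.1%), and 2 rose and 3 fell at day 5 against day 2 (8.77%, against 6.45%). As deposited alone 3 rose and 6 fell (15.8%, against 18.4%), 1 rose and 23 fell (42.1%, against 33.6%), and 0 rose and 16 fell (28.1%, against 16.1%) in the same order, so that at day 5 against day 2 the share of the pathway genes was above that of all genes in the deposited values.

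Among 7 other ligands tested, Gdf11, the closest relative of myostatin, rose at day 2 (log2FC 1.18 and 1.43). Its mean was 6.63 ± 0.013 (SD, n = 3) in cycling myoblasts, with 7.81 ± 0.033 on the day 2 and 6.46 ± 0 on the day 5 arrays, and at day 5 its log2FC against cycling myoblasts was -0.17 and 0.82. Inhbb, the subunit of activin B, fell at day 5 (log2FC -1.96 and -1.42) to a level under the array median. Thus 1 of the 7 rose at day 2, against 6.04% of all genes, and 1 fell at day 5, against 12.3%. Inha, the inhibin subunit, had log2FC 0.93 and 1.16 at day 2 and did not pass. Of 11 other receptors and co-receptors tested, 0 rose and 0 fell 2-fold on both scales in any comparison. Of all genes, 14.4% passed at day 2, 16.7% at day 5 against cycling myoblasts and 4.44% at day 5 against day 2. With so few receptors nothing is read from this count. The type I receptors Acvr1b, with log2FC -0.15 and 0.19, and Tgfbr1, with -0.23 and -0.01, were close to 0 at day 2. Over the 11 genes the median log2FC at day 5 was -0.90 and 0.04, against -0.37 and 0.17 for all genes. The deposited median is not read as a fall of the receptors, since a deposited day 5 change depends on level, as given above.

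Of 10 extracellular regulators tested, 2 fell at both times, against 8.41% of all genes lower at day 2 and 12.3% at day 5. Bmp1, a metalloprotease that frees myostatin from its propeptide, had 7.16 in cycling myoblasts, with 5.54 at day 2 and 4.56 at day 5, the same on all 3 arrays of a time (log2FC -1.62 and -1.25 at day 2, -2.59 and -1.79 at day 5). Pcsk6, a proprotein convertase, fell at day 2 (log2FC -2.65 and -2.36) to a level under the array median and was lower at day 5 as well (log2FC -2.07 and -1.35). Furin, the convertase that cleaves the myostatin precursor, had log2FC -0.01 and 0.22 at day 2.

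Of 15 genes tested in the list of SMADs and their regulators, 3 fell at day 2 and 5 at day 5, and 0 rose, against 8.41% and 12.3% of all genes lower. Smad7, the inhibitory SMAD, fell at day 2 (log2FC -1.79 and -1.41) and at day 5 (log2FC -2.43 and -1.62). The corepressors Skil (log2FC -1.14 and -1.01, then -3.05 and -2.20) and Tgif1 (log2FC -1.78 and -1.66, then -2.48 and -1.65) fell at both times, and Skil fell again from day 2 to day 5 (log2FC -1.91 and -1.18). Smad5 (log2FC -2.31 and -1.45), a transducer of BMP signals, and the ubiquitin ligase Smurf2 (log2FC -2.05 and -1.14) fell at day 5. Smad3, which carries myostatin and activin signals, had log2FC 0.82 and 1.08 at day 2 and reached 2-fold on the common scale alone. Smad7 and Skil are also targets of SMAD signalling and stand in that list too, of which 7 genes were tested. Pmepa1, another target and a feedback inhibitor, rose at day 2 (log2FC 1.06 and 1.21), so that 1 of the 7 rose and 2 fell at day 2, and 0 rose and 2 fell at day 5, against 6.04% and 8.41% of all genes at day 2 and 4.44% and 12.3% at day 5.

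In the natriuretic peptide list, 1 of 9 genes tested rose at each time against cycling myoblasts, against 6.04% of all genes higher at day 2 and 4.44% at day 5. This was Prkg1, the cyclic GMP-dependent protein kinase, with 4.26 ± 0 in cycling myoblasts, under the array median, 8.74 ± 0.015 at day 2 and 6.87 ± 0.20 at day 5 (SD, n = 3). The level in cycling myoblasts is not shown to lie above background, so the exact size of the rise is not known. Its log2FC was 4.49 and 4.43 at day 2 and 2.61 and 3.29 at day 5, and it fell from day 2 to day 5 (log2FC -1.87 and -1.14). Prkg2, the second such kinase, fell from day 2 to day 5 (log2FC -1.20 and -1.01) to a level under the array median. That level is not shown to lie above background, so the exact size of the fall is not known. Prkg2 also dropped under the threshold when any 1 array of cycling myoblasts was left out, which changes the common scale (log2FC -0.98 there). Npr3, the receptor that binds musclin, had log2FC 0.76 and 0.91 at day 2, and -1.18 and -0.85 at day 5 against day 2, without passing on both scales. Nppa, Nppb, Npr1 and Corin lay under the array median at all 3 times.

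**Figure D4:**
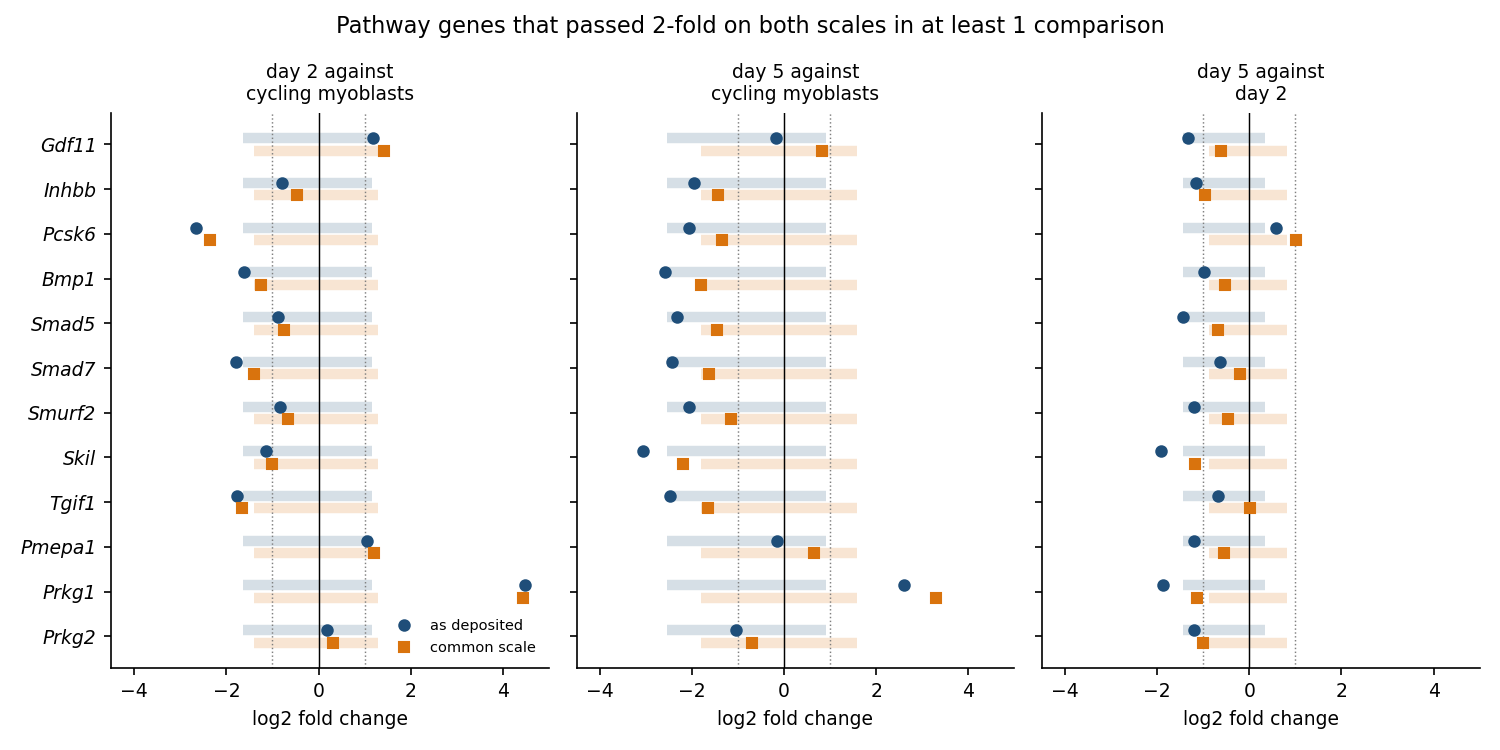
Log2 fold changes of the 12 pathway genes that passed 2-fold on both scales in at least 1 comparison, as deposited (circles) and on the common scale (squares). Shaded bars span the 5th to the 95th percentile of all 16582 genes and dotted lines mark 2-fold. Prkg1 lies at 4.49 and 4.43 at day 2, and Bmp1, Smad7, Skil and Tgif1 lie below 0 at both times against cycling myoblasts.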

How the data were processed

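Total RNA of mouse primary myoblasts and myotubes was hybridised to Affymetrix arrays, 1 array per sample. The deposited values are log2 expression values that the authors made with RMA, run per replicate set, per the submitters' processing notes and the design text. Its version was not given in the sources used here. Sorted values of 2 arrays of one time differed by at most 0.0251 on average, and of different times by at least 0.188, so each time was normalized apart and time and normalization cannot be told apart. The table held 35556 probe sets, of which the platform annotation gave 1 gene for 21789, several for 1621 and none for 12146.

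The probe set with the highest mean over 9 arrays stood for a gene, and a gene was tested if at least 3 arrays had it above their own 30th percentile. limma 3.58.1, run in R 4.3.3, fitted one model with a mean per time to the 9 arrays (lmFit, then eBayes), with Benjamini-Hochberg adjustment over 16582 genes, as deposited and after quantile normalization over all 9 arrays (the common scale). A call needed an adjusted p under 0.05 and an absolute log2 fold change of at least 1 on both. The fit was tested on simulated data with independent noise of the same size in every gene. Those data lacked the identical values seen here, so that test does not bear on the p values of these arrays. An exact permutation test of 3 against 3 arrays cannot go below p = 0.10 (two-sided), and none was run. Arrays with the same replicate number were not seen to deviate together (Pearson r of deviations from -0.038 to 0.106 over 9 pairs), so no block was used. For different numbers r ran from -0.151 to 0.163 over 18 pairs. At each time 47.9% to 60.2% of probe sets had equal values on all 3 arrays and thus no deviation, so a pairing could have been missed. The number of arrays limits the precision, and the table holds no measure of background.

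The 8 members and all lists were chosen with earlier results of these data known. Named in the text are the 8 members, the pathway genes called in at least 1 comparison, the 3 genes nearest in course to each member, and markers by count and range; other pathway genes given with values were chosen after their values were seen. Alternatives were the scale, the filter, the probe set, the variance prior, the fold threshold, a replicate block and leaving out each array. Promoter sequences are RefSeq's.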

Additional observations from a re-analysis of the deposited data

How the results depend on the processing

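Over all genes 2396 were called at day 2 against cycling myoblasts, 2776 at day 5 against cycling myoblasts (736 up, 2040 down) and 736 at day 5 against day 2 (127 up, 609 down). For the pathway genes the counts were 8, 9 and 3. The scale moved the later comparisons most. As deposited alone, 5576 genes were called at day 5 against cycling myoblasts (736 up, 4840 down) and 2675 at day 5 against day 2 (127 up, 2548 down), with 24 and 16 of 57 pathway genes (42.1% and 28.1%, against 33.6% and 16.1% of all genes). With each array centred on its median they were 4749 (1413 up, 3336 down) and 1521 (234 up, 1287 down), with 18 and 9 pathway genes (31.6% and 15.8%, against 28.6% and 9.17%). On the common scale alone they were 4000 (1960 up, 2040 down) and 1070 (461 up, 609 down), with 5 pathway genes at day 5 against day 2. At a log2 fold change of at least 0.5 the 3 comparisons gave 5622, 5627 and 2757 genes, and 22, 20 and 15 pathway genes. The filter, the mean of all probe sets and the variance prior kept each count within 1.5 times. With the replicate number as a replicate block the counts were 2396, 2776 and 736, and no call count changed; the numbers were not found to pair the arrays. Leaving out 1 array gave 2350 to 2412, 2755 to 2799 and 728 to 772 genes, and 8, 9 and 2 to 3 pathway genes.

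Of the 24 changes of the 8 members, 3 per gene and not independent of each other, 13 reached 2-fold as deposited. On the common scale 3 of these did not, 1 other did, and 4 changes of Inhba and Acvr2b turned sign, none of them 2-fold. Of all genes, 18.4%, 33.6% and 16.1% were called in the 3 comparisons as deposited alone. On the common scale alone 16.2%, 24.1% and 6.45% were. Nothing is read from the counts of members. Leaving out an array moved a member's log2 fold change by at most 0.10 and turned the sign of 1, Inhba at day 5 against cycling myoblasts (0.02 without replicate 1 of cycling myoblasts). Signal near or under the array median limits what can be said of Inhba, of Acvr2b, of Ostn before day 5 and of Fstl1 at day 5.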
